A study of Mus musculus with 24 samples.

Results

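The miR-17-92 family and the miR-106b-25 cluster were read in plasma by 10 of the 566 mouse miRNA probes of a NanoString nCounter panel. The members were taken by name: every mouse probe without a star whose miRNA is miR-17, miR-18a, miR-19a, miR-19b, miR-20a, miR-25, miR-92a, miR-92b, miR-93 or miR-106b. 8 probes read a single miRNA, and the other two read a pair of near-identical miRNA together, miR-106a with miR-17 and miR-20a with miR-20b. nCounter counts colour-coded probes that have bound a tagged miRNA, with no amplification, so a raw count is a number of bound probes.

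Plasma came from 24 male C57BL/6J mice aged 20 weeks, 8 in each of 3 groups that differed in what the mice breathed for 4 h per day on 5 days. The EPFR group inhaled particles that carry environmentally persistent free radicals, which are surface-bound radicals formed when organic material burns. The EPFR lo group inhaled particles of lower radical content, at the same particle mass, given as 250 µg/m3 in the submitters' design text and somewhat higher in the study's methods. The control group inhaled filtered air. RNA was isolated from 200 µL of plasma per mouse, described by the submitters as exosomal, and 10 ng was profiled. Per the study's methods, the kit isolates circulating as well as exosomal RNA, from plasma spun to clear debris. RNA of any cells or cell fragments left in the plasma was not measured apart. The cell of origin was not measured either. Less RNA released and fewer cells releasing it cannot be told apart in such samples.

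All of these miRNA but miR-92b are made from 3 related gene clusters that arose by duplication, and each cluster is transcribed as a single precursor that is cut into several mature miRNA. A miRNA finds its targets mainly by its seed, the bases near the 5′ end, and members that share a seed share most predicted targets. The miR-17 seed group represses cell cycle and survival regulators such as Cdkn1a and Bcl2l11, and the miR-25 seed group includes miR-92a, which restrains vessel growth in endothelial cells. The miR-106b-25 cluster lies in an intron of Mcm7, a DNA replication gene.

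The mature sequences are shown because the results set miRNA with the same seed, and miRNA cut from the same precursor, against each other. All 12 miRNA read by the 10 probes were found in RefSeq (GRCm38.p6), taking for each unstarred probe name the arm that carries that name today. Sequences run 5′ to 3′, and capitals mark the seed, bases 2 to 8.
miR-17: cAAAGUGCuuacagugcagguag
miR-106a: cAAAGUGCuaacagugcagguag
miR-20a: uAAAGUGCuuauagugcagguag
miR-20b: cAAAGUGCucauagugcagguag
miR-93: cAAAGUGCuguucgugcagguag
miR-106b: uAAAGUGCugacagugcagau
miR-18a: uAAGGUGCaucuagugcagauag
miR-19a: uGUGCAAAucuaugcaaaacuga
miR-19b: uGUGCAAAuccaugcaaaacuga
miR-25: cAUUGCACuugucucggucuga
miR-92a: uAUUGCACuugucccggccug
miR-92b: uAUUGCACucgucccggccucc

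6 of the 12 miRNA share the seed AAAGUGC, 3 share AUUGCAC and 2 share GUGCAAA, while miR-18a has AAGGUGC to itself. Within the joined probes, miR-17 and miR-106a differ at a single base (U10A, counted from 1 at the 5′ end, with the base of miR-17 first), and miR-20a and miR-20b differ by U1C and U10C. miR-19a and miR-19b differ only by U11C but have a probe each. miR-93 and miR-106b, which share a seed and a precursor, differ at 5 of 21 compared positions, by C1U, U11A, U12C, C13A and G20A. How far near-identical miRNA bind each other's probes was not tested.

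The 3 hairpins of the miR-106b-25 cluster lie within 498 bases on the minus strand at chr5:138165321-138165818, inside Mcm7. The 6 hairpins of the miR-17-92 cluster lie within 836 bases on the plus strand at chr14:115043671-115044506. The third cluster, miR-106a-363, lies on the minus strand at chrX:52741693-52742567 and holds miR-106a and miR-20b as well as second copies of miR-19b and miR-92a. A count for miR-19b, miR-92a or either joined probe therefore cannot be assigned to a cluster. miR-92b is encoded alone, on the minus strand at chr3:89227116-89227198.

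Total mouse miRNA counts per mouse ran between 8418 and 30483. 8 negative-control probes per mouse set the background, and a limit of their mean plus 2 SD was 34.1 counts over all mice. 41 of the 566 miRNA averaged above it. Counts were scaled to 4 housekeeping mRNA probes, and these probes were all at or below background in 4 mice, EPFR lo mice 1, 2 and 4 and filtered air mouse 2, whose scaling is therefore nominal. Ligation controls, synthetic RNA that tracks how well the tags were joined, were 2.59-fold higher in EPFR mice than in filtered air mice (exact permutation p = 0.00373, 8 of 8 mice above the filtered air median) and 1.88-fold higher in EPFR lo mice (exact permutation p = 0.112, 6 of 8 mice).

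mmu-miR-25 was the most abundant member by count, and mmu-miR-92a and mmu-miR-92b, which carry its seed, were not distinguishable from background. In raw counts, miR-25 had a lowest, median and highest value of 101, 251.5 and 431 in EPFR mice, 88, 190 and 401 in EPFR lo mice and 67, 93 and 320 in filtered air mice. It ranked 3rd of the 566 miRNA by mean count and exceeded each mouse's own background limit in 24 of 24 mice. By contrast, raw counts of miR-92a lay between 3 and 18 over all mice and those of miR-92b between 4 and 19, and neither exceeded the limit of any mouse. mmu-miR-18a lay between 8 and 23 counts and likewise exceeded the limit in 0 of 24 mice. No fold change of these 3 probes is given on its own, and counts and medians over the 10 members include them at background.

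The miR-17 seed group spanned the range between. Raw counts of the joined probe for miR-20a and miR-20b had a lowest, median and highest value of 31, 76 and 112 in EPFR mice, 32, 74.5 and 131 in EPFR lo mice and 27, 51 and 114 in filtered air mice. For miR-106a with miR-17 they were 22, 57 and 92 in EPFR mice, 25, 56.5 and 91 in EPFR lo mice and 26, 37.5 and 77 in filtered air mice. These probes were above their mouse's limit in 21 and 16 of 24 mice, and their groups overlapped. mmu-miR-106b, with 14, 25 and 91 counts in EPFR mice, 18, 51.5 and 79 in EPFR lo mice and 10, 19 and 36 in filtered air mice, passed its mouse's limit in 2 EPFR, 5 EPFR lo and 1 filtered air mice. mmu-miR-93, made from the same precursor, had 9, 25 and 33 counts in EPFR mice, 7, 22.5 and 41 in EPFR lo mice and 7, 19 and 44 in filtered air mice, and passed the limit in 3, 1 and 1 mice of these groups.

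The miR-19 pair lay around the limit. mmu-miR-19a had a lowest, median and highest raw count of 20, 42 and 65 in EPFR mice, 18, 42 and 87 in EPFR lo mice and 15, 25.5 and 59 in filtered air mice. For mmu-miR-19b these were 15, 35 and 44 in EPFR mice, 21, 33.5 and 53 in EPFR lo mice and 18, 31.5 and 46 in filtered air mice. Just inside the limit by mean count over the 24 mice stood miR-19a at 40.0, and just outside it miR-106b at 33.7 and miR-19b at 33.5. Counts differ between probes in binding as well as in miRNA amount, so these orders describe counts and not copies.

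**Figure D1:**
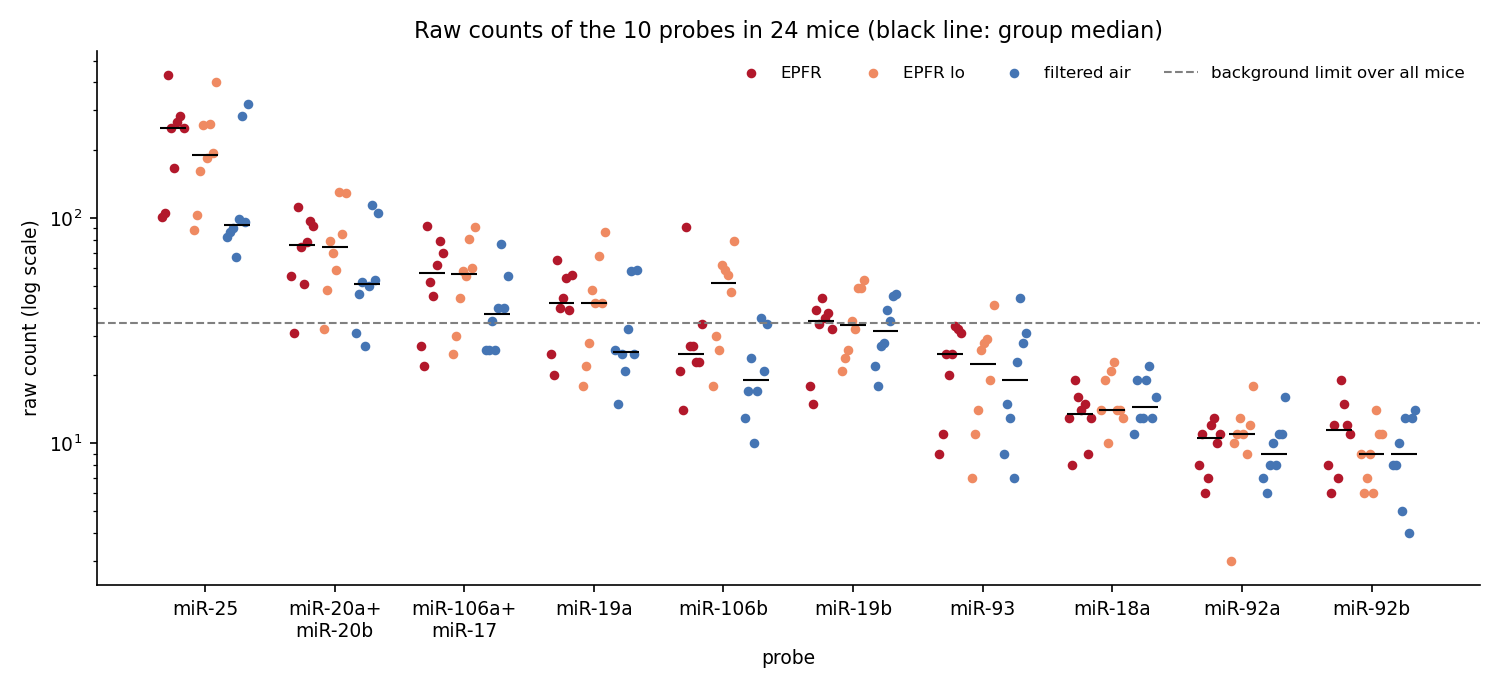
Raw counts on a log axis of the 10 probes, ordered by mean count, in each of 24 mice, coloured by group (EPFR, EPFR lo, filtered air). Black lines are group medians and the dashed line is the background limit of 34.1 counts; miR-25 lies above it in 24 of 24 mice, and miR-18a, miR-92a and miR-92b lie below it in all.

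Together the 10 probes took 3.69% ± 0.47 of mouse miRNA counts in EPFR mice, 3.23% ± 0.45 in EPFR lo mice and 2.96% ± 0.54 in filtered air mice (SD, n = 8 each). miR-25 alone made up 44.0% of the pooled member counts in EPFR mice, 39.2% in EPFR lo mice and 36.7% in filtered air mice. These shares include the background of each probe.

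In EPFR lo against filtered air, miR-106b was higher and no other member was called. Its scaled counts had a lowest, median and highest value of 26.7, 45.9 and 102.1 in EPFR lo mice and 7.78, 19.5 and 34.6 in filtered air mice. All 8 EPFR lo mice were above the filtered air median in scaled counts, although the ranges overlapped. EPFR lo mouse 1, whose scaling is nominal, had a raw count of 18, below the filtered air raw median of 19. The means were 50.8 ± 24.0 in EPFR lo mice and 21.7 ± 9.73 in filtered air mice (SD, n = 8 each). The log2 fold change was 1.23 (SE 0.33), or 2.35-fold on counts that hold each probe's background, with an adjusted p of 0.0365 by edgeR's quasi-likelihood test with Benjamini-Hochberg adjustment over the 566 miRNA. An exact two-sided permutation test of log2(scaled count + 1) gave p = 0.00171 for the same 8 and 8 mice, with a mean difference of 1.21, or 2.81 with background subtracted (exact permutation p = 0.00233). Here and below, subtraction sets any remainder under 1 count to 1, so such values depend on which mice reach that floor. As miR-106b passed its mouse's limit in 1 of 8 filtered air mice, the size of the fold is not settled by these counts. It was 1 of the 10 members called, where the test called 0.707% of all miRNA (4 of 566).

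The level of miR-106b was close to the background limit in EPFR lo mice and mostly below it in filtered air mice, and its call depended on the mice and the scaling. Within replicates 1 to 4 the log2 fold change was 1.64 (adjusted p = 0.266 by edgeR) and within replicates 5 to 8 it was 0.90 (adjusted p = 0.405), with 4 mice per group in each. Scaled by total count it was 0.75 (adjusted p = 0.0795), and without the 4 mice with housekeeping probes at background it was 1.12 (adjusted p = 0.629). With the ligation controls as a covariate it was 0.90 (adjusted p = 0.998), and their part in the result was not tested further. Leaving out 1 mouse at a time gave log2 fold changes between 1.02 and 1.36. The adjusted p was above 0.05 without EPFR lo mouse 4 (0.233), 8 (0.0664), 2 (0.0622), 5 (0.0608) or 6 (0.0605), and without filtered air mouse 1 (0.166), 4 (0.150), 7 (0.110), 3 (0.0924) or 5 (0.0663).

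**Figure D2:**
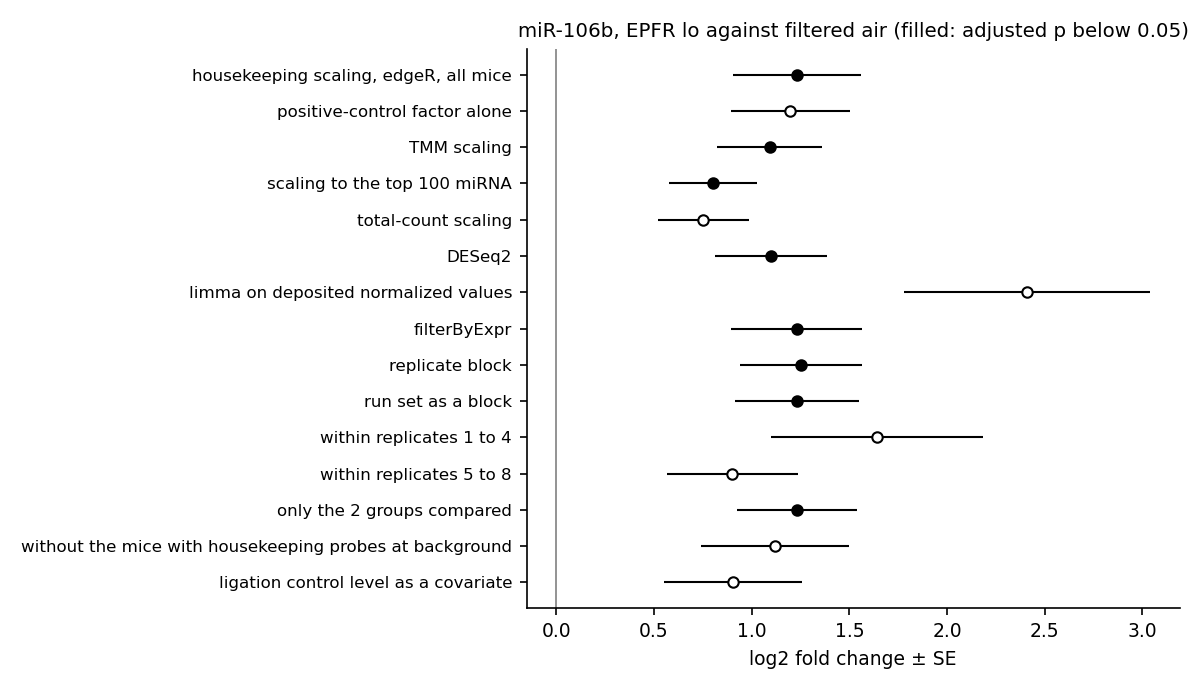
log2 fold change of miR-106b in EPFR lo against filtered air, with its SE as a bar, under each scaling, test, filter, block or choice of mice; filled points have an adjusted p below 0.05. The value ran between 0.75 with total-count scaling and 2.41 with limma on the deposited normalized values, and was above 0 throughout.

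The remaining 6 members that passed the limit in any mouse were not called in EPFR lo mice. miR-25 averaged 215.5 ± 88.5 scaled counts in EPFR lo mice and 142.2 ± 101.1 in filtered air mice (SD, n = 8 each), and its log2 fold change was 0.60 (SE 0.42). For miR-106a with miR-17 the log2 fold change was 0.50 (SE 0.34), for miR-19a 0.48 (SE 0.33), for miR-20a with miR-20b 0.42 (SE 0.36), for miR-19b 0.24 (SE 0.32) and for miR-93 0.09 (SE 0.31), each with an adjusted p of 1.00 by edgeR. In scaled counts, all 8 EPFR lo mice lay above the filtered air median for miR-25, miR-19a and both joined probes, and 2 of 8 did for miR-93. In raw counts, EPFR lo mice 1 and 2, whose scaling is nominal, lay below it for miR-19a and both joined probes. Mouse 1 also lay below it for miR-25, with 88 raw counts against a median of 93. The exact permutation p was 0.0494 for miR-25 and 0.0448 for miR-106a with miR-17, against 0.133 and 0.373 with total-count scaling and 0.0626 and 0.0615 with positive-control scaling. With 1 mouse left out it was under 0.05 in 3 of 16 fits for miR-25 and in 6 of 16 for miR-106a with miR-17. Over the 30 such tests of single members, 3 were under 0.05, unadjusted.

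The log2 fold change was above 0 for all 10 members in EPFR lo mice, with a median of 0.35, but for 5 of 10 when counts were scaled by total count or to the 100 miRNA with the most counts, and for 5 of 10 within replicates 5 to 8. It was above 0 for 68.7% of all miRNA, with a median of 0.11, and for 97.6% of the 41 miRNA above the background limit, with a median of 0.60. The 4 members above that limit had a median of 0.49. miR-451, miR-144, miR-486, miR-16 and miR-15b, the red blood cell list, were above 0 in 5 of 5 with a median of 0.83, and their summed scaled counts lay between 3083 and 9933 in EPFR lo mice and between 911 and 7797 in filtered air mice. Of the other marker lists, liver was above 0 in 4 of 4 (median 0.88), leukocyte in 6 of 6 (0.54) and platelet in 4 of 4 (0.41). Lung and airway epithelium was above 0 in 8 of 9 (0.26), and heart and skeletal muscle in 4 of 6 (0.26). By mean count, 5 of 5 red blood cell, 5 of 6 leukocyte and 2 of 4 platelet miRNA exceeded the background limit. So did 2 of 6 heart and skeletal muscle, 1 of 4 liver and 0 of 9 lung and airway miRNA. Medians of lists with few probes above the limit describe mostly background. miR-155 (leukocyte) and miR-34c (lung and airway) had 1 count in every mouse, so their values reflect scaling alone. Per the study's methods, hemolysed plasma was left out before profiling, and the part of red blood cell RNA in the member values was not tested.

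In EPFR against filtered air, 0 of 10 members were called, where 0.707% of all miRNA were (4 of 566). The largest log2 fold change belonged to miR-25, with a lowest, median and highest scaled count of 72.7, 324.8 and 465.6 in EPFR mice and 49.1, 99.97 and 326.0 in filtered air mice. 7 of 8 EPFR mice were above the filtered air median and the groups overlapped. The log2 fold change was 0.94 (SE 0.42), with an unadjusted p of 0.0256 and an adjusted p of 0.726 by edgeR. It was 1.57 within replicates 1 to 4 and 0.55 within replicates 5 to 8, 0.61 with total-count scaling and 0.50 (unadjusted p = 0.275 by edgeR) with the ligation controls as a covariate. In EPFR mice the scaled counts of miR-25 fell on either side of a wide gap, with 3 mice between 72.7 and 112.3 and 5 between 297.8 and 465.6. The gap was narrower in raw counts, which were 101 to 166 and 251 to 431 in these mice. Housekeeping scaling factors were 0.676 to 1.02 in the lower mice and 1.08 to 1.57 in the others.

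miR-106b had a log2 fold change of 0.75 (SE 0.33, unadjusted p = 0.0242, adjusted p = 0.720 by edgeR) in EPFR mice, and 5 of 8 were above the filtered air median. Its mean in EPFR mice rested on mouse 3, which had a scaled count of 98.3 where the other EPFR mice lay between 14.3 and 42.3; without that mouse the log2 fold change was 0.33. It was 1.35 within replicates 1 to 4, 0.17 within replicates 5 to 8, 0.37 with total-count scaling and 0.28 with the ligation covariate. For miR-106a with miR-17 the log2 fold change was 0.68 (SE 0.34, unadjusted p = 0.0493, adjusted p = 0.962). At an unadjusted p under 0.05, 3 of 10 members were higher and 0 lower, where 3.89% of all 566 miRNA and 39.0% of the 41 above the background limit were higher, and 1.24% of the 566 were lower.

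The remaining members whose count passed the limit of any mouse had smaller differences in EPFR mice. The log2 fold change was 0.59 (SE 0.33) for miR-19a, 0.50 (SE 0.36) for miR-20a with miR-20b, 0.32 (SE 0.31) for miR-93 and 0.14 (SE 0.32) for miR-19b, each with an adjusted p of 0.991 by edgeR. 9 of 10 members were above 0, or 7 of 10 with total-count scaling, top-100 scaling or the ligation covariate, where 37.1% of all miRNA and 78.0% of those above the limit were. The median was 0.44 over the 10 members and -0.09 over all miRNA, and 0.63 over the 4 members above the limit against 0.59 over the 41 miRNA above it. The red blood cell list was above 0 in 5 of 5 with a median of 0.81. Leukocyte was above 0 in 5 of 6 (median 0.37), platelet in 3 of 4 (0.32) and liver in 3 of 4 (0.17). Heart and skeletal muscle was above 0 in 4 of 6 (0.16), and lung and airway epithelium in 6 of 9 (0.11). That last median is the value of miR-34c, which had 1 count in every mouse, and 0 of 9 on that list exceeded the limit.

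**Figure D3:**
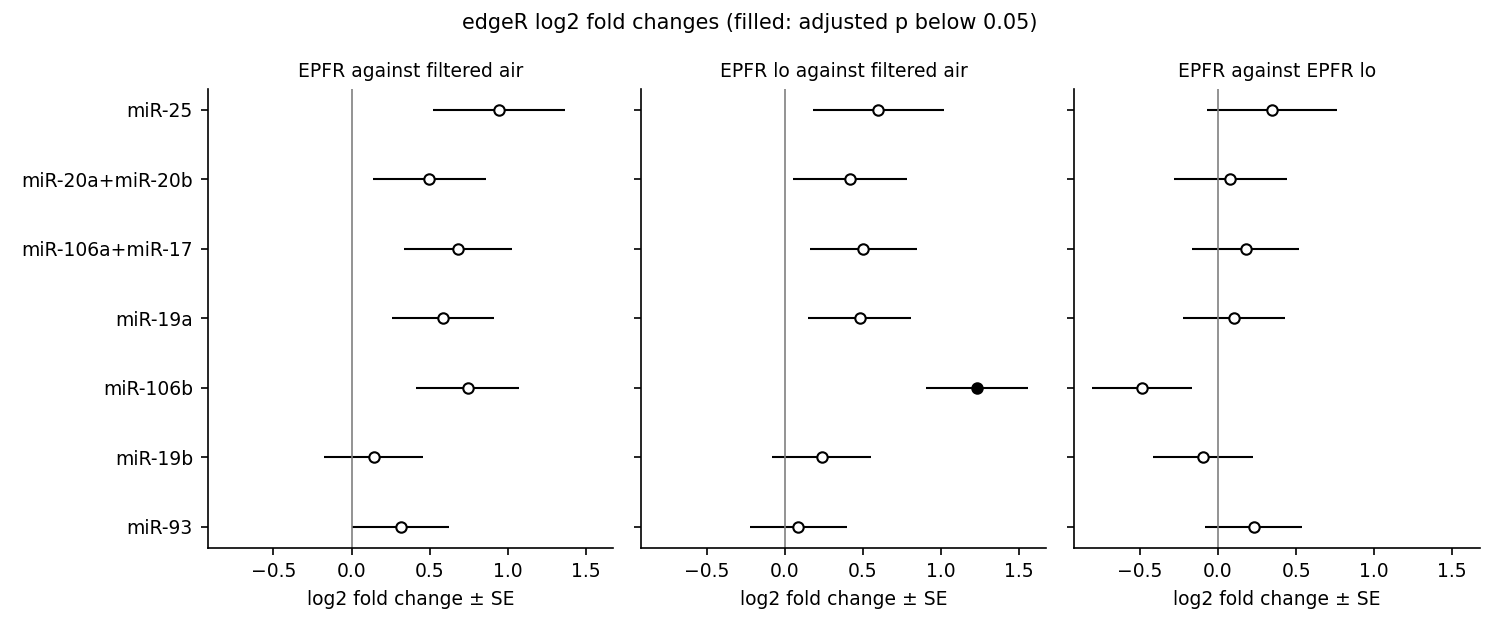
edgeR log2 fold changes, with their SE as bars, of the 7 probes that exceeded the background limit of any mouse, in a panel for each of the 3 comparisons, ordered by mean count. Only miR-106b in EPFR lo mice is filled (adjusted p = 0.0365); miR-25 is the highest value in EPFR mice, at 0.94.

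EPFR against EPFR lo asks whether radical content at the same particle mass changes these miRNA. 0 of 10 members were called, where 0.177% of all miRNA were (1 of 566), and 0 passed an unadjusted p of 0.05, where 2.47% of all miRNA did. miR-106b averaged 36.3 ± 27.3 scaled counts in EPFR mice and 50.8 ± 24.0 in EPFR lo mice (SD, n = 8 each), which gave a log2 fold change of -0.48 (SE 0.32, adjusted p = 0.955 by edgeR). miR-25 averaged 274.1 ± 154.0 in EPFR mice and 215.5 ± 88.5 in EPFR lo mice, a log2 fold change of 0.35 (SE 0.42, adjusted p = 0.955 by edgeR). Without EPFR mouse 3 these log2 fold changes were -0.90 for miR-106b and 0.19 for miR-25, and without EPFR lo mouse 4 they were -0.27 and 0.56. The standard errors leave room for differences of either sign.

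**Figure D4:**
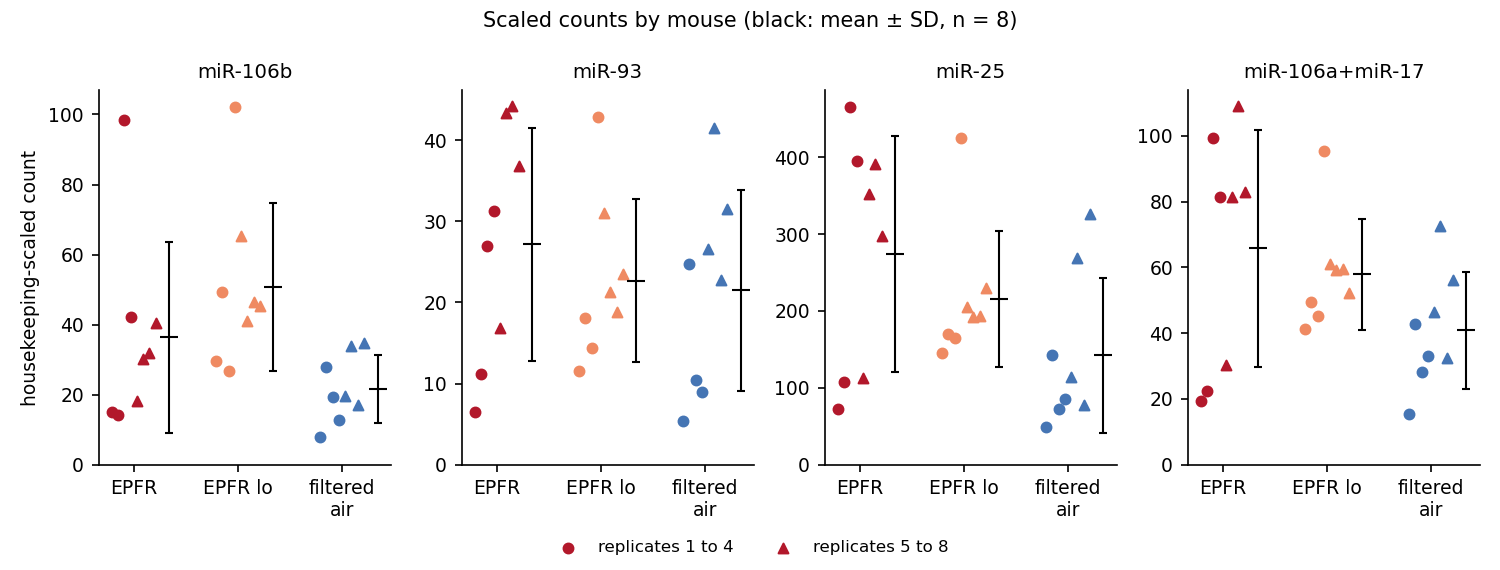
Housekeeping-scaled counts of miR-106b, miR-93, miR-25 and the miR-106a with miR-17 probe in each mouse, by group (EPFR, EPFR lo, filtered air), with circles for replicates 1 to 4, triangles for replicates 5 to 8, and the mean ± SD in black. The EPFR lo mice lie between 26.7 and 102.1 for miR-106b, against 7.78 to 34.6 in filtered air, while miR-93 overlaps throughout.

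Ratios between members within each mouse do not depend on scaling, and in EPFR lo mice miR-106b was higher relative to miR-93, which shares its seed and precursor, and to both joined probes of its seed group. Relative to miR-25, its other precursor mate, the difference did not pass the adjustment. 9 ratios were tested in 3 comparisons by exact two-sided permutation, with Benjamini-Hochberg adjustment over the 27 tests, and 4 (14.8%) passed an adjusted p of 0.05, or 5 with a pseudocount of 4 in place of 1. All 4 had miR-106b as the denominator, as 4 of the 9 ratios did. The ratios were chosen with earlier results known and use the same miR-106b counts as its call in EPFR lo mice. They are therefore not a separate check of that call.

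The lowest p belonged to miR-93 over miR-106b, although most of these counts were within the background: miR-93 passed its mouse's limit in 1 of 8 EPFR lo and 1 of 8 filtered air mice, and miR-106b in 5 of 8 EPFR lo and 1 of 8 filtered air mice. The log2 ratio had a lowest, median and highest value of -1.37, -1.14 and -0.85 in EPFR lo mice and -0.84, -0.15 and 0.41 in filtered air mice, so the groups did not overlap, which held for 1 of the 27 comparisons (3.7%). The gap between them was narrow. The mean was -1.11 ± 0.19 in EPFR lo mice and -0.12 ± 0.46 in filtered air mice (SD, n = 8 each), a difference of -0.98 (SE 0.18) with exact permutation p = 0.000155, the smallest that 8 against 8 mice can give, and an adjusted p of 0.0042. The difference was -0.68 within replicates 1 to 4 and -1.28 within replicates 5 to 8. It stayed between -1.09 and -0.91 with any 1 mouse left out, with adjusted p between 0.0042 and 0.0084 by the same exact permutation test. The raw counts behind it were small, 7 to 41 for miR-93 and 18 to 79 for miR-106b in EPFR lo mice, and hold each probe's background; with background subtracted the difference was -2.41 (adjusted p = 0.022, exact permutation), so its size is not settled by these counts.

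Both joined probes of the miR-17 seed group moved the same way against miR-106b in EPFR lo mice. For miR-106a with miR-17 the log2 ratio averaged 0.26 ± 0.31 in EPFR lo mice and 0.90 ± 0.28 in filtered air mice (SD, n = 8 each), a difference of -0.64 (SE 0.15, exact permutation p = 0.00109, adjusted p = 0.0147), and 0 of 8 EPFR lo mice were above the filtered air median. For miR-20a with miR-20b it averaged 0.74 ± 0.51 in EPFR lo mice and 1.38 ± 0.19 in filtered air mice, a difference of -0.64 (SE 0.19, exact permutation p = 0.00435, adjusted p = 0.0294), with 1 of 8 above. That adjusted p was above 0.05 without filtered air mouse 2 (0.0587), 4 (0.052), 5 (0.0661) or 6 (0.0554) or EPFR lo mouse 2 (0.0524) or 4 (0.0545), while that of miR-106a with miR-17 over miR-106b stayed at or below 0.0315. With background subtracted the difference was -2.05 for miR-20a with miR-20b over miR-106b and nearly as large for miR-106a with miR-17, each with an adjusted p of 0.0147 by exact permutation. These values too depend on miR-106b counts set to the floor. The 3 ratios share the counts of miR-106b and are not independent. In EPFR against filtered air none of them passed. The differences were -0.25 for miR-93, -0.05 for miR-106a with miR-17 and -0.10 for miR-20a with miR-20b (adjusted p = 0.665, 0.873 and 0.812, exact permutation). EPFR minus EPFR lo was 0.74, 0.59 and 0.53 in the same order, which did not pass either (adjusted p = 0.0886, 0.0886 and 0.135, exact permutation).

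miR-25 over miR-106b differed between the particle groups. The log2 ratio averaged 2.86 ± 0.52 in EPFR mice, 2.10 ± 0.31 in EPFR lo mice and 2.51 ± 0.43 in filtered air mice (SD, n = 8 each). EPFR minus EPFR lo was 0.77 (SE 0.21, exact permutation p = 0.00326, adjusted p = 0.0294). All 8 EPFR mice lay above the EPFR lo median, and the ranges overlapped. It was 0.71 without EPFR lo mouse 2 (adjusted p = 0.0524, exact permutation), 0.76 without EPFR lo mouse 4 (adjusted p = 0.0545) and 1.28 with background subtracted (adjusted p = 0.0907). The difference was 0.46 within replicates 1 to 4 and 1.07 within replicates 5 to 8. EPFR lo minus filtered air was -0.41 (SE 0.19, exact permutation p = 0.0435, adjusted p = 0.117), and with background subtracted it was -1.92 and passed (adjusted p = 0.0154, exact permutation). As miR-106b passed its mouse's limit in 1 of 8 filtered air mice, the subtracted value rests on counts at or near the floor. Against miR-93, miR-25 differed by 0.60 (SE 0.24, exact permutation p = 0.0263, adjusted p = 0.0886) in EPFR mice and 0.57 (SE 0.21, exact permutation p = 0.0135, adjusted p = 0.073) in EPFR lo mice, neither of which passed. With a pseudocount of 4 the EPFR lo difference was still 0.57 and passed (adjusted p = 0.0487, exact permutation), and with background subtracted it was 0.49 (adjusted p = 0.672).

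**Figure D5:**
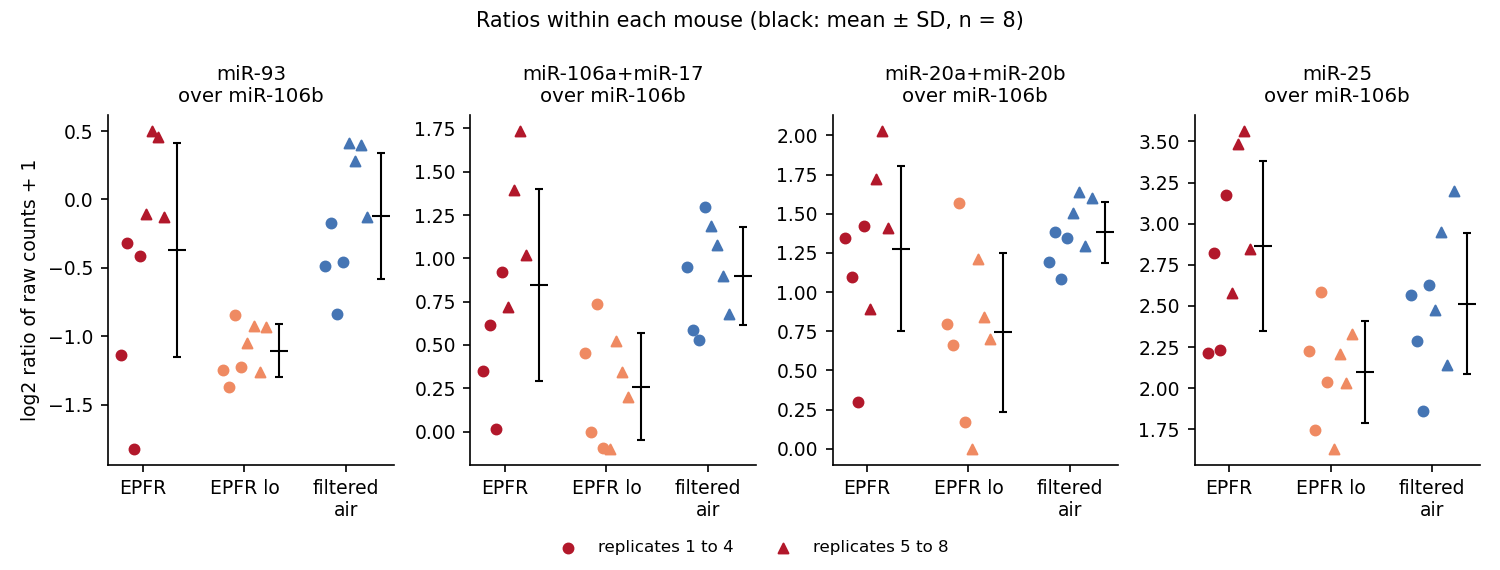
log2 ratios of raw counts + 1 within each mouse, for miR-93, the miR-106a with miR-17 probe, the miR-20a with miR-20b probe and miR-25, each over miR-106b, by group (EPFR, EPFR lo, filtered air), with circles for replicates 1 to 4, triangles for replicates 5 to 8, and the mean ± SD in black. For miR-93 over miR-106b the 8 EPFR lo mice lie between -1.37 and -0.85, below all 8 filtered air mice, while EPFR mice spread between -1.82 and 0.50.

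Set against miR-451, the red blood cell miRNA with the most counts on the panel among the listed markers, no member passed Benjamini-Hochberg adjustment over the 30 tests. The lowest exact permutation p was 0.00311, for miR-93 in EPFR lo against filtered air, where the log2 ratio averaged -7.68 ± 0.39 in EPFR lo mice and -6.81 ± 0.56 in filtered air mice (SD, n = 8 each), a difference of -0.87 (adjusted p = 0.0932). miR-106b over miR-451 differed by 0.12 in the same comparison.

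The members above the background limit had 2 miRNA of the red blood cell list as their nearest matches from mouse to mouse in scaled counts. By Spearman correlation of log2(scaled count + 1) over the 24 mice, the nearest of 37 other miRNA above the limit were miR-16 and miR-486 for each of these 4 members. For miR-25 the values were 0.97 and 0.97, for miR-19a 0.93 and 0.92, for miR-106a with miR-17 0.92 and 0.93, and for miR-20a with miR-20b 0.89 and 0.90, in that order of miR-16 and miR-486. Correlations were high in general, with a median over the 37 candidates between 0.63 and 0.71 for these members. miR-451 and miR-144, also on the red blood cell list, were not among the 2 nearest of any member. These are descriptions, as every scaled count in a mouse shares that mouse's scaling factor. As shares of total counts the correlations with miR-16 and miR-486 were 0.88 and 0.74 for miR-25, 0.74 and 0.52 for miR-106a with miR-17, 0.66 and 0.51 for miR-19a, and 0.43 and 0.43 for miR-20a with miR-20b. Among the members, miR-25 correlated with miR-106a with miR-17 at 0.95 in scaled counts and 0.68 in shares, and with miR-106b at 0.82 in scaled counts and 0.25 in shares.

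4 relatives outside the naming rule were also on the panel, miR-18b and miR-363 of the miR-106a-363 cluster and miR-32 and miR-367, which share the seed of miR-25. None exceeded its mouse's background limit in any of 24 mice, with raw counts between 2 and 27, and 0 of 4 passed an unadjusted p of 0.05 by edgeR in any of the 3 comparisons. Of the members with the miR-25 seed, then, miR-25 was the only one whose count exceeded the background limit of any mouse.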

How the data were processed

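Per the study's methods, plasma RNA of each mouse was run on its own on the NanoString nCounter Mouse v1.5 miRNA panel, in several batches. The authors deposited raw counts per probe and a second table of normalized signal. Per those methods, background was subtracted from this signal, which was then scaled to positive controls and to housekeeping probes. A rebuild with background subtraction and housekeeping scaling alone matched 13584 of 13584 values within 2%. 2 further deposited tables hold the authors' own comparisons (fold changes and p-values) and were not used.

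Raw counts of 566 mouse miRNA were tested with edgeR 4.0.16 (R 4.3.3, glmQLFit and glmQLFTest) on the 24 mice, with exposure group and no further term, library sizes set by background-subtracted housekeeping counts (factors 0.572 to 1.65) and Benjamini-Hochberg adjustment over all 566. A miRNA was called at an adjusted p under 0.05. Viral, spike-in and control probes were left out. SE is the log2 fold change divided by the square root of F. Single values and ratios used exact two-sided permutation tests with a pseudocount of 1; 12870 regroupings exist. Where background was subtracted, remainders under 1 count were set to 1 and no pseudocount was added. Alternatives used DESeq2 1.42.0 and limma 3.58.1 (log2 of deposited signal + 1). The edgeR code was also run on counts simulated from its own fitted dispersions and the same scaling factors. Those counts held no run-set or ligation effect and no error in the scaling, so that run cannot speak to these. The raw table lists replicates 1 to 4 of every group before replicates 5 to 8, and these sets of replicates were treated as run sets; no source used here names the batch of a mouse. The labels do not say whether mice shared cages. Per the study's methods, several mice were exposed at a time in a whole-body chamber, so exposure and chamber run cannot be told apart. The p-values set group differences against the spread between these mice only. No 2 libraries of a group agreed within counting noise (84 pairs, chi-square per degree of freedom 1.13 to 8.33). All members were named, and the members, ratios and marker lists were chosen with earlier results of these data known. Sequences and coordinates are RefSeq's, GRCm38.p6.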

Additional observations from a re-analysis of the deposited data

Results flagged for a closer look

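A mouse far from the other mice of its group (Dixon's test at the 95% level, over 45 groups of values, 5 of which held such a mouse; chance gives about 1 in 20) was found for 4 scaled counts and 1 ratio. EPFR lo mouse 4, whose housekeeping probes were at background, had 425.0 scaled counts of miR-25 where the other EPFR lo mice lay between 145.0 and 229.5. It also had 95.5 scaled counts of miR-106a with miR-17, against 41.2 to 60.9 in the others, and 79.1 of miR-19a, against 28.7 to 49.8. EPFR mouse 3 had 98.3 scaled counts of miR-106b, against 14.3 to 42.3 in the other EPFR mice. EPFR lo mouse 5 had a log2 ratio of miR-25 over miR-93 of 2.68, against 3.12 to 3.48 in the others. The effects of the particle groups differed in the log2 ratio of miR-25 over miR-106b, by 0.77 for EPFR against EPFR lo.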

How the results depend on the processing

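In EPFR lo against filtered air the 1 member called, miR-106b, was the only one in any setting, and 0 members were called with positive-control scaling, with total-count scaling, with limma on the deposited signal, among miRNA above the background limit (which leaves miR-106b out), within either set of replicates, without the 4 mice with housekeeping probes at background or with the ligation covariate; leaving out 1 mouse gave 0 to 1. Of all miRNA, that comparison called 4 (4 higher, 0 lower), against 2 with positive-control scaling, 13 (4 higher, 9 lower) with top-100 scaling, 6 (3 higher, 3 lower) with total-count scaling, 6 (5 higher, 1 lower) with TMM, 12 (11 higher, 1 lower) with DESeq2, 7 with run set as a block, 1 within replicates 1 to 4, 0 within replicates 5 to 8, 0 with limma, 0 above the limit, 0 without the 4 mice and 1 with the ligation covariate, and 1 to 10 with a mouse left out. EPFR against filtered air called 4 (4 higher, 0 lower), against 3 (2 higher, 1 lower) with positive-control scaling, 9 (5 higher, 4 lower) with top-100 scaling, 7 (4 higher, 3 lower) with total-count scaling, 6 (5 higher, 1 lower) with TMM, 9 (8 higher, 1 lower) with DESeq2, 0 with limma, 7 with run set as a block, 1 within replicates 1 to 4 and 1 with the ligation covariate, and 2 to 9 with a mouse left out. EPFR against EPFR lo called 1, against 2 with total-count scaling, 0 with limma, 0 within either set of replicates, 0 with only those groups and 0 without the 4 mice, and 0 to 1 with a mouse left out. The cause of these changes was not tested. Total-count scaling moved the median of all miRNA to -0.36 in EPFR lo mice and -0.37 in EPFR mice, on the log2 scale.

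With the replicate number as a block, miR-106b stayed called in EPFR lo mice (log2 fold change 1.25, adjusted p = 0.0125 by edgeR), 0 other members were called, and 2 of all miRNA were called in EPFR, 7 in EPFR lo and 1 between the exposures. The labels do not say whether the numbers pair the mice. Deviations of same-numbered mice correlated above 0.1 in 4, 2 and 3 of 8 pairs of the 3 comparisons, with medians of 0.10, 0.055 and 0.070. Differently numbered mice were not compared, so these values cannot settle it. miR-19b changed sign in EPFR mice with top-100 scaling (-0.12), total-count scaling (-0.19) and the ligation covariate (-0.043), and in EPFR lo mice with top-100 scaling (-0.16), total-count scaling (-0.21) and within replicates 5 to 8 (-0.11). miR-93 changed sign in EPFR mice with the ligation covariate (-0.30), and in EPFR lo mice with top-100 scaling (-0.26), total-count scaling (-0.31), within replicates 5 to 8 (-0.38), with the ligation covariate (-0.32) and with a mouse left out (-0.081 to 0.30). Of the 432 fold changes of single members recomputed under the other alternatives, 54 changed sign and 7 lost the call, and 0 gained one. The 4 ratios past the threshold were 0 within either set of replicates, where the smallest exact p for 4 against 4 mice is 0.0286, and 2 to 8 with a mouse left out; single members with an exact p under 0.05 numbered 1 to 6, and ratios over miR-451 past the adjustment 0 to 1, with a mouse left out. Raw counts near 34.1 limit what can be told for miR-106b, miR-19b and miR-93, and counts at background for miR-18a, miR-92a and miR-92b.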
